A study of Mus musculus with 4 samples.

Results

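FOXA2 regions listed at both stages of a chromatin immunoprecipitation and sequencing (ChIP-seq) study of the mouse uterus are described here. They are 586 of the 10373 intervals called in the adult and the 587 of 814 intervals called at postnatal day 12 (PD12) that overlap them. A region was defined by an overlap of at least 1 bp between the lists, counting start and end positions as inside the interval. It therefore made up 5.65% of the adult list and 72.1% of the PD12 list. The members were chosen by that overlap, so the measures of overlap, width and distance between the stages are descriptions and carry no test. Intervals with no partner are called adult-only (9787) and PD12-only (227), names that refer to the lists alone and say nothing of binding below the threshold used.

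The adult group was whole uterus of female mice on days 2.5 and 3.5 of pseudopregnancy, the hormonal state after a sterile mating, and the earlier group was whole uterus of females at postnatal day 12. Each stage was profiled with a goat antibody to FOXA2 and with a rabbit antibody to the serine 2-phosphorylated form of RNA polymerase II (POL2), giving 4 groups of 1 library each. The adult days stand on a single library, and the sources used here do not give how they were combined, the strain or the number of animals. With 1 library per group there is no replicate, so no difference below has a test and no p-value is given. The deposited lists hold positions alone, so the read depth and the height of each region are unknown. In whole tissue, fewer cells with FOXA2 on a region and less FOXA2 per cell cannot be told apart. The genome build is not named in the sources used here, so no gene, exon or sequence is assigned to a region, and the tissue was not checked against marker genes.

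FOXA2 is a forkhead transcription factor, known as a pioneer factor because it can bind its sites in closed chromatin before other factors do. In the mouse uterus it is found in the glandular epithelium, is needed for glands to form after birth, and in the adult is needed for the gland secretions, among them LIF, that allow implantation. The serine 2-phosphorylated polymerase is the form that elongates along gene bodies, so its called intervals, here named POL2 domains, mark transcribed stretches and not gene starts alone.

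At both stages the shared regions were centred on nearly the same point, and the adult interval reached past the PD12 interval on both sides. Of the 587 PD12 intervals, 562 (95.7%, 95% interval 93.8 to 97.2) lay wholly inside their adult partner. The other 25 reached past 1 end of it, and none reached past both ends. The exact (Clopper-Pearson) intervals given with shares cover counting error only.

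The median distance between the centres was 55.5 bp (interquartile range 26.5 to 103.5). It was within 50 bp in 273 regions (46.5%) and within 200 bp in 531 (90.5%). The PD12 centre fell on the low-coordinate side of the adult centre in 309 regions and on the high-coordinate side in 278, so neither side was clearly favoured. The adult interval extended beyond the PD12 one by a median of 242 bp on the low side (147.5 to 307.5) and 244 bp on the high side (163 to 316.5). The extensions on the sides were nearly unrelated across the 587 regions (Spearman's rho 0.08, given as a description, since the points share both libraries). Centres lay further apart in wide regions, with a median of 129 bp in the widest 25% by adult width and 55.3 bp in the narrowest 25%. A wide adult interval leaves more room for the centres to differ, and the distance was not scaled to width.

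**Figure D1:**
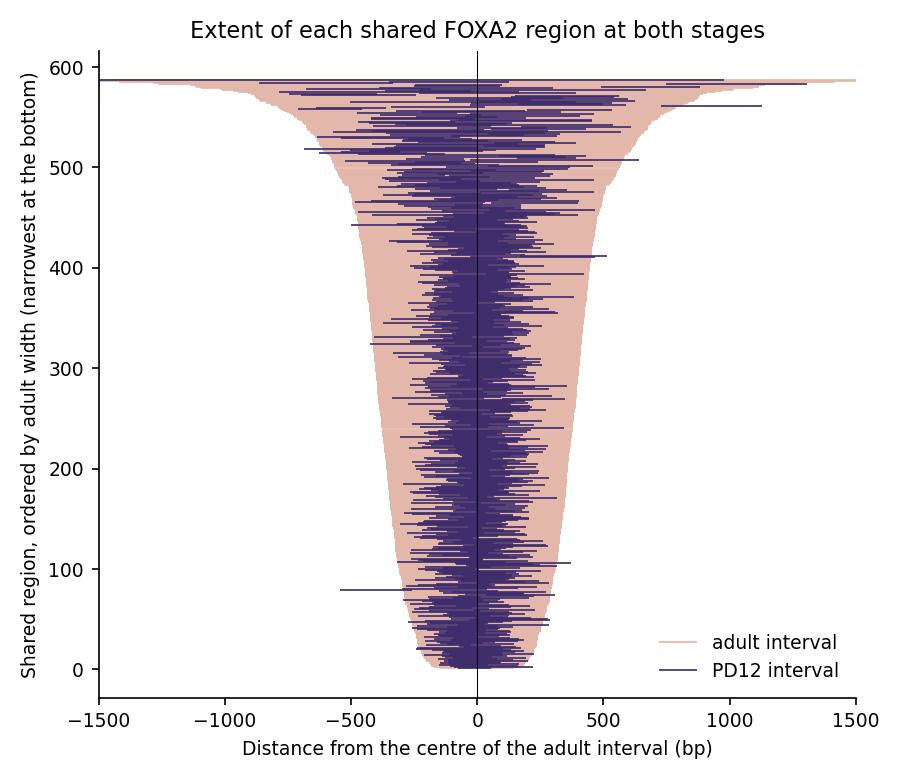
Each line is a shared FOXA2 region, with the adult interval in light red and the PD12 interval in dark violet, placed by distance in bp from the adult centre and ordered by adult width. The PD12 intervals form a narrow band about the adult centre, and 562 of 587 lie inside the adult interval; the 6346 bp region at the top runs past the axis.

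In each of the 587 pairs the adult interval was the wider. Adult partners had a median width of 805 bp (interquartile range 676 to 942) and their PD12 intervals one of 315 bp (262.5 to 383.5). The adult interval was a median of 2.49 times as wide as its PD12 interval, with a range of 1.10 to 6.61. It was at least 2 times as wide in 461 regions (78.5%) and at least 4 times in 38 (6.47%). Regions that were wide in the adult also tended to be wide at PD12 (Spearman's rho 0.48 over 587 pairs, a description). The ratio fell with PD12 width, but PD12 width is its denominator, so the fall is no separate result. The median adult width was 1114 bp for the 20% of members that were widest at PD12 (406 to 3900 bp), 2.19 times as wide. It was 737 bp for the 20% that were narrowest at PD12 (131 to 254 bp), 3.21 times as wide. Adult-only intervals had a median width of 679 bp (556 to 812), below that of the adult partners, but a wider interval also overlaps another list more often by its length alone. PD12-only intervals had a median of 328 bp (264.5 to 429), close to that of the shared PD12 intervals.

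The highest ratios belonged to regions in POL2 domains, although the median ratio was similar inside and outside domains. It was 2.57 for members whose adult partner overlapped a domain of either stage and 2.47 for those in neither. At chr5:143578474-143580754 the adult interval was 2281 bp and the PD12 interval 345 bp (6.61 times). At chr3:121128461-121130696 the widths were 2236 bp in the adult and 339 bp at PD12 (6.60 times). At chr14:14844770-14845871 the widths were 1102 bp in the adult and 172 bp at PD12 (6.41 times). All 3 overlapped POL2 domains at both stages. The PD12 centre of the first lay 74 bp from the adult centre, which puts the narrow postnatal interval near the middle of the wide adult one.

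Only 6 regions had nearly equal widths, with a ratio under 1.25. Of the 6, 4 lay in an adult POL2 domain and none lay in a PD12 one. The shares over all adult partners were 27.5% and 19.1%, and 6 regions are too few to set against them. A pair stood 4170.5 bp apart on chromosome 2, at chr2:98506282-98507605 (1324 bp in the adult and 1145 bp at PD12) and chr2:98502293-98503253 (961 bp in the adult and 814 bp at PD12). Their centres differed between stages by 0.5 and 8.5 bp. The third in an adult domain was chr9:25059460-25060453 (994 bp in the adult and 828 bp at PD12, centres 9 bp apart), and the fourth was chr10:85417167-85417572 (406 bp in the adult and 335 bp at PD12). The 2 outside any domain were chr11:53307208-53307554 (347 bp in the adult and 315 bp at PD12) and chrX:157203905-157204363 (459 bp in the adult and 414 bp at PD12).

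Wide regions were mostly in POL2 domains. Of the 10 widest adult partners (2025 to 6346 bp), 9 lay in an adult domain and 8 in a PD12 domain. The exception at both stages was chr11:68853560-68855749, 2190 bp in the adult and 689 bp at PD12. Of all 586 adult partners, 27.5% lay in an adult domain and 19.1% in a PD12 domain. Wide adult-only intervals were also often in domains. In the widest 10% of the adult list, 61.6% of them lay in an adult domain and 37.6% in a PD12 domain. For the 10 intervals that were widest at PD12 (814 to 3900 bp), the adult partner lay in an adult domain in all 10 cases and in a PD12 domain in 4. Those 10 stand for 9 adult intervals, since 2 lie inside the same one on chromosome 17.

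The only adult interval that held more than 1 PD12 interval was also the widest shared region. It was chr17:39979544-39985889, 6346 bp in the adult, with PD12 intervals of 3900 and 1446 bp inside it. Its nearest other adult FOXA2 interval lay 777 kb away. An adult POL2 domain covered 6000 bp of it, and within 25 kb of its centre no PD12 POL2 domain and no further adult one was listed. Regions of nearly equal width at both stages, and this one, were not checked for repeated or multicopy sequence, and the part of such sequence in these values was not tested.

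**Figure D2:**
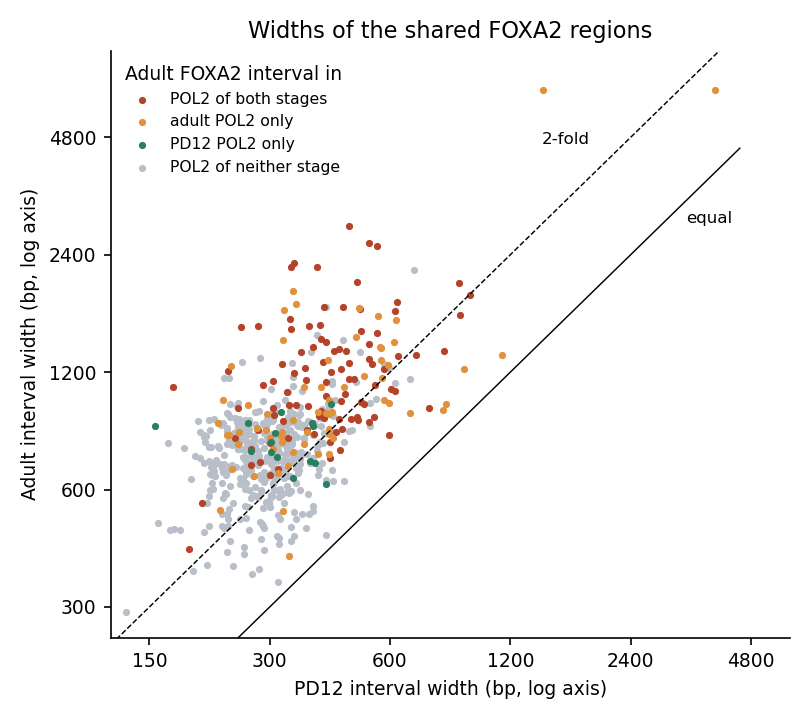
Adult interval width against PD12 interval width for the 587 pairs, both in bp on log axes, coloured by the POL2 domains that the adult interval overlapped. The solid line marks equal widths and the dashed line a 2-fold ratio; all points lie above the solid line, and the points in POL2 domains of both stages have median widths of 1139 bp in the adult and 416 bp at PD12.

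Near the edge of the rule the overlaps were small in few regions. The median overlap was 314 bp, and the smallest were 35 bp at chr6:88183893-88184480, 66 bp at chr9:31087152-31088737 and 131 bp at chr2:90235172-90235463. The last of these is the narrowest PD12 member, 131 bp long and wholly inside its partner, so only 2 members touched by less than 100 bp. Just outside the rule, the nearest PD12-only intervals lay 63 bp (chr19:21153147-21153372) and 80 bp (chr1:167572214-167572689) from an adult interval. In all, 8 of the 227 PD12-only intervals were within 500 bp of one, and their median distance was 52138 bp. Most PD12-only intervals were therefore far from any adult interval rather than near misses.

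Most shared regions lay outside transcribed stretches as POL2 lists them. Of the 586 adult partners, 410 (70.0%, 66.1 to 73.7) overlapped a POL2 domain of neither stage, 97 (16.6%, 13.6 to 19.8) overlapped domains of both stages, 64 (10.9%, 8.51 to 13.7) an adult domain alone and 15 (2.56%, 1.44 to 4.19) a PD12 domain alone. Adult POL2 domains thus held 161 of them (27.5%, 23.9 to 31.3) and PD12 domains 112 (19.1%, 16.0 to 22.5). Over the whole adult FOXA2 list these shares were 19.4% in adult domains and 11.4% in PD12 domains, with 79.3% in neither, 10.1% in both, 9.27% in an adult domain alone and 1.30% in a PD12 domain alone. Shared regions were therefore outside domains less often than the list as a whole. Among adult-only intervals, 18.9% (18.1 to 19.7) lay in adult domains and 11.0% (10.4 to 11.6) in PD12 domains. Both shares were higher in the shared regions, and the limits from counting did not overlap. Those limits treat the intervals of 1 library as independent, so this is no test. Shared regions were also wider. With adult-only intervals weighted to the widths of the shared ones, the adult-only shares were 27.4% in adult and 15.7% in PD12 domains. Of the shared regions in an adult domain, 60.2% (52.2 to 67.9) were also in a PD12 domain, against 51.5% (49.2 to 53.8) of the adult-only ones, where the limits did overlap.

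Measured on the PD12 intervals, the shares were lower in the shared regions than in the unshared ones. Of the 587 shared PD12 intervals, 161 (27.4%, 23.9 to 31.2) lay in an adult POL2 domain and 110 (18.7%, 15.7 to 22.1) in a PD12 one. Of the 227 PD12-only intervals, 36.1% (29.9 to 42.7) lay in adult domains and 24.2% (18.8 to 30.3) in PD12 domains. The limits overlapped in both cases; overlap alone does not make the shares equal, and the difference has no test. The order also changed with width. In the 20% of PD12 intervals that were widest, adult domains held 74.5% (64.9 to 82.6) of shared and 63.3% (49.9 to 75.4) of PD12-only intervals, and PD12 domains held 48.0% (38.0 to 58.2) of shared and 36.7% (24.6 to 50.1) of PD12-only intervals. In the next 3 bins of width the PD12-only shares were the higher ones for both kinds of domain, and in the narrowest 20% the shared ones were. Over all 814 PD12 intervals the shares were 29.9% in adult and 20.3% in PD12 domains.

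**Figure D3:**
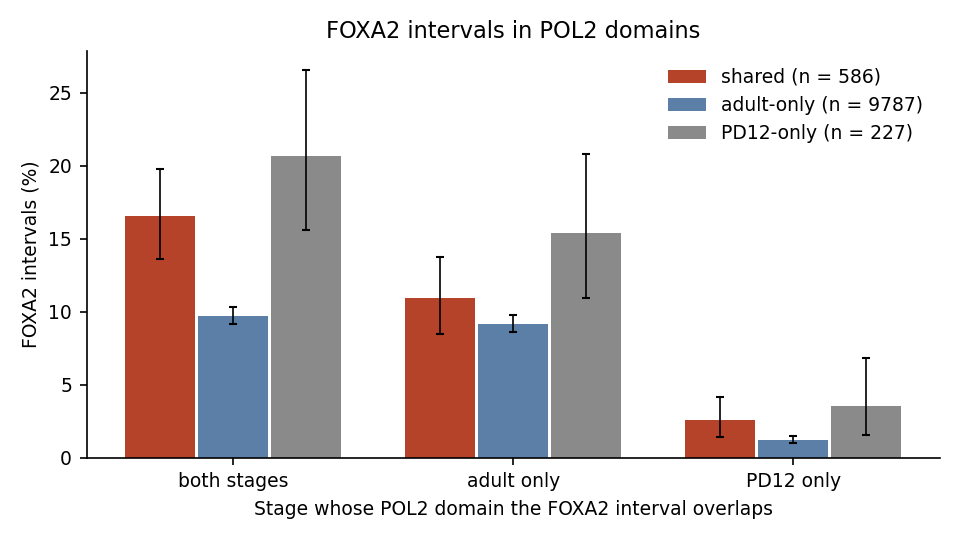
Share of FOXA2 intervals (%) that overlap POL2 domains of both stages, of the adult alone or of PD12 alone, for shared adult intervals, adult-only intervals and PD12-only intervals. Error bars are exact 95% binomial intervals for counting error; the shared regions stand at 16.6%, 10.9% and 2.56%, and the remainder of each class lay in no domain.

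Width and POL2 context went together within the shared regions. Partners in domains of both stages had a median adult width of 1139 bp (interquartile range 915 to 1431), and those in an adult domain alone one of 946 bp (825 to 1255). Partners in a PD12 domain alone had a median of 793 bp (718.5 to 882), and those in neither one of 744 bp (638 to 858.75). The PD12 widths kept the same order, with medians of 416, 397, 321 and 300 bp. Centres differed between stages by a median of 112 bp in domains of both stages, 82.5 bp in adult domains alone, 41 bp in PD12 domains alone and 48.5 bp outside domains. Regions in adult domains thus had higher medians of width and of centre distance than those outside domains. The 15 in PD12 domains alone had a median adult width of 793 bp, against 744 bp outside domains, and a smaller centre distance. Centre distance was not matched for width. The 20% of members that were widest at PD12 lay in an adult POL2 domain in 84 of 118 cases (71.2%, 62.1 to 79.2). The 20% that were narrowest did so in 16 of 119 (13.4%, 7.88 to 20.9).

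Set beside adult-only intervals of like width, the shared regions lay in adult POL2 domains about as often. With adult-only intervals weighted to the widths of the shared ones in 10 equal bins of the adult list, 27.4% of them would lie in an adult domain, against 27.5% of the shared regions. For PD12 domains the weighted adult-only share was 15.7%, against 19.1% of the shared regions, whose lower limit was 16.0%. The bins did not all point one way. In the widest 10% (1050 bp and more), 80 of 103 shared regions (77.7%, 68.4 to 85.3) lay in an adult domain, against 576 of 935 adult-only intervals (61.6%, 58.4 to 64.7). Within that bin the median width was 1324 bp for shared and 1258 bp for adult-only intervals. In the bin below it (860 to 1049 bp) the shares were 37 of 122 (30.3%, 22.3 to 39.3) for shared regions and 361 of 912 (39.6%, 36.4 to 42.8) for adult-only intervals. Without the widest 10% of adult intervals, 16.8% (13.5 to 20.4) of shared regions and 14.4% of adult-only intervals lay in adult domains. Among the narrower 50% of adult intervals the order turned, with 6.37% (3.10 to 11.4) of shared regions and 8.65% of adult-only intervals. PD12 domains likewise held 55.3% (45.2 to 65.1) of shared regions and 37.6% (34.5 to 40.8) of adult-only intervals in the widest 10%.

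**Figure D4:**
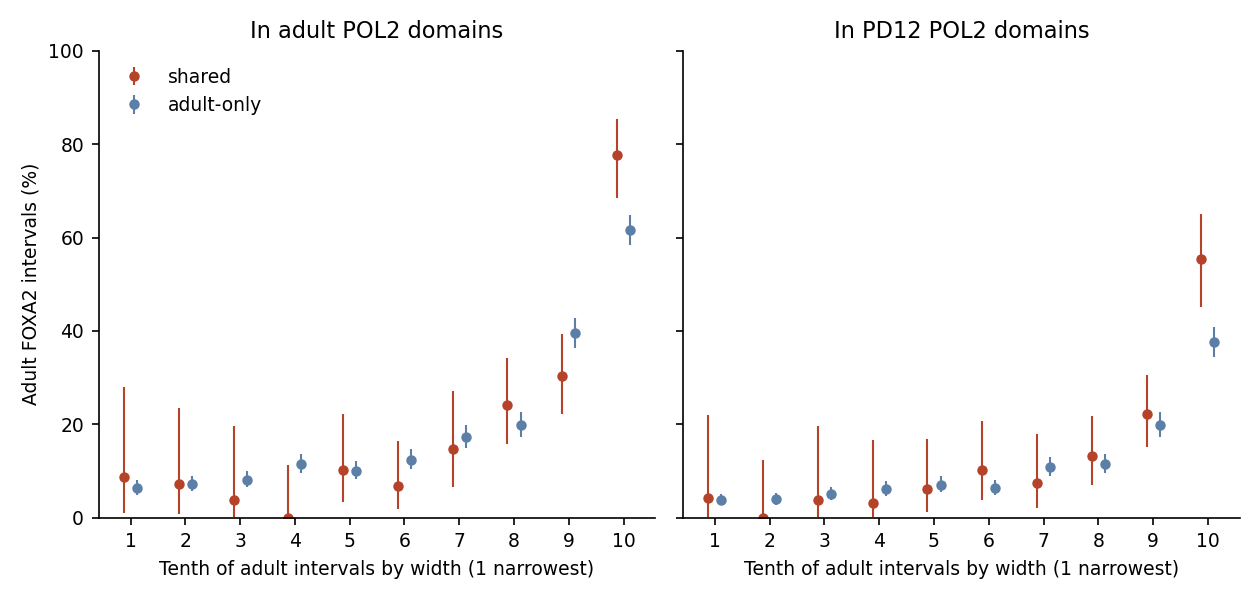
Share of adult FOXA2 intervals (%) in adult POL2 domains (left) and in PD12 POL2 domains (right), in 10 equal bins of the adult list ordered by width, for shared and adult-only intervals with exact 95% binomial intervals. Shares of both classes are low up to the middle bins and highest in the widest one, where shared regions reach 77.7% and 55.3%.

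Around the shared regions, the share of positions inside a POL2 domain was highest at the centre. Adult POL2 domains covered 27.3% of the centres of shared regions, 10.8% and 11.3% of the points 5 kb to either side, and a mean of 7.88% of the points 20 to 25 kb away. PD12 domains covered 18.6% of the centres and 5.90% of the far points. The centre stood 3.46 times above the far points in adult domains and 3.16 times in PD12 domains. Around adult-only intervals these ratios were 2.19 and 1.76, while their far points, at 8.44% and 6.08%, were close to those of the shared regions. Around PD12-only intervals the ratios were 3.15 and 2.59. Their centres, at 36.1% in adult and 24.2% in PD12 domains, and their far points, at 11.5% and 9.35%, were above those of the shared regions. The classes differ in width, and the profiles were not matched for it. A shared region was held by 160 adult domains, with a median width of 6800 bp (interquartile range 3200 to 11050), and the 1685 adult domains with adult-only FOXA2 alone had a median of 6200 bp (3400 to 10600). The shared regions were spread over these domains, with 1 region in each except a domain on chromosome 17, chr17:71187200-71203799, which held 2. The PD12 domain over the same stretch, chr17:71183200-71203399, held the same pair.

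**Figure D5:**
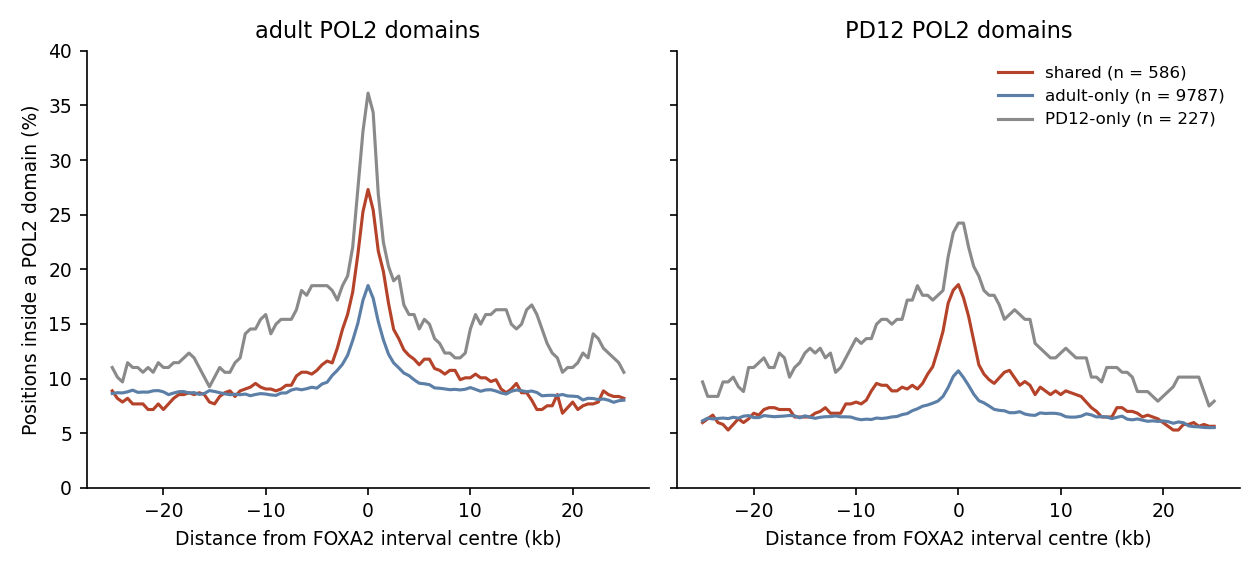
Share of positions (%) inside a POL2 domain at each distance (kb) from the centre of shared, adult-only and PD12-only FOXA2 intervals, for adult domains (left) and PD12 domains (right). Shared regions peak at 27.3% and 18.6% at the centre and come close to adult-only intervals at 20 to 25 kb.

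In the 50 kb around each shared region, the balance of POL2 between stages leaned to the adult, as it did across both lists. Mean POL2 coverage per window was 5.17 kb in the adult and 4.16 kb at PD12, 1.24 times. It was 4.73 kb in the adult and 3.38 kb at PD12 around adult-only intervals (1.40 times), and 7.48 kb in the adult and 6.49 kb at PD12 around PD12-only intervals (1.15 times). All domains together covered 95.2 Mb in the adult and 70.4 Mb at PD12 (1.35 times). The adult had more covered bases at 189 shared regions (32.3%, 28.5 to 36.2), near the 30.8% of the whole adult FOXA2 list. PD12 had more at 91 (15.5%, 12.7 to 18.7), against 12.2% of the whole list. No POL2 was listed at either stage in the window of 304 shared regions (51.9%, 47.7 to 56.0), against 56.4% of the whole list.

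Single shared regions stood in stretches that differed far more than that mean. They were picked after their values were seen, as the largest differences in either direction. At chr10:38703917-38704742 adult POL2 covered 35.3 kb of the window and PD12 POL2 none, although FOXA2 was listed at both stages (826 bp in the adult and 237 bp at PD12). At chr11:86570716-86571939 adult POL2 covered 29.3 kb and PD12 POL2 none. This region was among the widest at PD12, at 918 bp, and was 1224 bp in the adult. At chr7:132695242-132696179 the window held 26.3 kb of adult and 1.71 kb of PD12 POL2, and the region lay in an adult domain of 34.2 kb.

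The opposite balance was seen at fewer shared regions. At chr2:33079207-33080044 no adult POL2 was listed and PD12 POL2 covered 24.4 kb, with FOXA2 intervals of 838 bp in the adult and 309 bp at PD12. At chr6:101167546-101168435 the window held 6.6 kb of adult and 21.8 kb of PD12 POL2. Both were among the 15 shared regions that lay in a PD12 domain alone. At chr8:87294249-87295147, which lay in domains of both stages, the values were 31.6 kb in the adult and 47.2 kb at PD12. The chromosome 2 and chromosome 6 windows were thus covered mostly at PD12, whereas the chromosome 8 window was widely covered at both stages.

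Of the 10 shared regions in the longest adult POL2 domains, 9 also lay in a PD12 domain. Among all shared regions in an adult domain this share was 60.2%, and among all adult FOXA2 intervals in one it was 52.2%. The 10 were picked by domain length and are too few to set against these shares. The longest, of 87.4 kb, held chr15:77652253-77653067 (815 bp in the adult and 245 bp at PD12). PD12 POL2 covered 86.2 kb of this adult domain. The single PD12 domain that held the region was 67.6 kb long, of which 67.4 kb was covered in the adult. Next were domains of 38.6 kb around chr2:156005087-156006499 (1413 bp in the adult and 532 bp at PD12) and of 36.2 kb around chr2:157939364-157940057 (694 bp in the adult and 270 bp at PD12). The chromosome 7 region described above was the one outside a PD12 domain. These 10 regions were 553 to 1820 bp wide in the adult, so narrow and wide intervals both occurred there.

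Some adult partners were close in extent to a short POL2 domain. The adult FOXA2 interval and the domain covered at least 50% of each other at 25 shared regions for adult POL2 (4.27%, 2.78 to 6.23), against 1.73% of the whole adult FOXA2 list. For PD12 POL2, also set against the adult FOXA2 interval, it was 6 regions (1.02%, 0.377 to 2.22), against 0.482% of the list. Wider FOXA2 intervals meet this condition more easily, and the shares were not matched for width. At chr1:180335233-180337257 (2025 bp in the adult and 893 bp at PD12) the POL2 domain was 2200 bp at each stage. At chr4:133369009-133371581 it was 3200 bp in the adult and 4000 bp at PD12, and at chr6:136752093-136753452 it was 2400 bp in the adult and 2000 bp at PD12. In these 3 regions the adult FOXA2 interval met that condition with the POL2 domains of both stages. Their PD12 FOXA2 intervals were narrower, at 893, 533 and 821 bp, and were not measured in this way. Signal of like extent in the FOXA2 and POL2 libraries was not compared with an input library, so the part of antibody-independent signal was not tested.

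Shared regions had close FOXA2 neighbours about as often as the other adult intervals. Another adult FOXA2 centre lay within 10 kb of 118 of the 586 (20.1%, 17.0 to 23.6), against 21.2% of the whole adult list and 21.3% (20.5 to 22.1) of adult-only intervals. The median distance to the nearest other adult centre was 42.3 kb for shared and 37.9 kb for adult-only intervals. Of the 118 with a close neighbour, the nearest one was itself shared for 17 (14.4%, 8.62 to 22.1), against 105 of 2081 adult-only intervals (5.05%, 4.15 to 6.08). Over the whole adult list it was 122 of 2199 (5.55%). Where 2 shared regions were each other's nearest, both were counted, so the 17 are not independent and their limits are too narrow. Shared regions up to 50 kb apart formed 22 groups, 21 of 2 and 1 of 3, which together held 45 of the 586. The group of 3 spanned 33.2 kb at chr18:70752750-70785921, with 4 adult FOXA2 intervals in all, and 1 of its 3 shared regions lay in an adult POL2 domain and 1 in a PD12 one. The most crowded single region was chr7:119969510-119970398, with 7 other adult intervals within 50 kb and the nearest 2498 bp away. At the other end, 123 shared regions (21.0%, 17.8 to 24.5) were more than 50 kb from any other adult FOXA2 centre and from any POL2 domain of either stage, against 22.4% of the whole adult list.

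The shared regions were spread over all 20 chromosomes listed. The shared part of the PD12 list ranged from 57.4% on chromosome 10 (27 of 47, 42.2 to 71.7) to 88.5% on chromosome 16 (23 of 26, 69.8 to 97.6), and these limits overlap. As a share of the adult list it ranged from 2.87% on chromosome 19 (10 of 349) to 7.73% on chromosome 9 (44 of 569). Chromosome X held 5 shared regions, among 138 adult and 7 PD12 intervals.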

How the data were processed

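Whole-uterus ChIP-seq was done for FOXA2 and for serine 2-phosphorylated RNA polymerase II at 2 stages, with 1 library per group. Per the file headers, the authors deposited for each library a table of called intervals (chromosome, start, end), with no score or count. BWA is named, without a version, in the submitters' processing notes; the sources used here give no peak caller, threshold, use of input or build. The positions were taken to be of another build than GRCm38, since 260 intervals on 9 chromosomes, 177 of them on chromosome 7, lie beyond the last gene of the RefSeq table for that build. The planned analyses of promoters, forkhead motif and gene lists were therefore not run.

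Positions were counted as inclusive. Overlap was 1 bp or more; POL2 windows reached 25 kb to each side of the adult centre; neighbours were measured from centre to centre. Shares have exact 95% binomial intervals. They treat intervals as independent, and regions of 1 library are not replicates. The overlap code was checked on simulated lists. Named regions are, by rule, the 10 widest at each stage, the 10 in the longest adult POL2 domains, the adult interval with more than 1 PD12 member, and those with the 3 largest and 3 smallest overlaps; others were named after their values were seen. The members, measures and rule were chosen with earlier results of these data known. Python 3.11.15, numpy 2.4.6, pandas 2.3.3, scipy 1.17.1 and matplotlib 3.10.9 were used. Alternatives used other overlaps, widths and distances.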

Additional observations from a re-analysis of the deposited data

How the results depend on the processing

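Of 28 alternatives to 7 results, 13 gave a value inside the 95% interval of the one reported and 15 gave one outside. Some alternatives leave out the widest 10% of adult intervals, or the chromosome 17 region with 2 PD12 members and the chromosome 2 pair. These were chosen after the data were seen. Leaving out the chromosome 17 region and the pair was run for 6 of the 7 results and moved none of these outside its interval. It kept 583 of the 586 adult partners, so it could move a value only little and says little of stability.

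The shared part of the PD12 list, 72.1%, was 15.5% with 50% of both intervals covered and 59.5% when each list was reduced to its 50% widest intervals. The contained part, 95.7%, was 98.7% for PD12 intervals up to the median width and 99.1% when 90% of the PD12 interval sufficed. The centre distance was 45.5 bp without the widest 10%. The adult width of shared regions, 805 bp, was 638.5 bp with 50% of both intervals covered, below the 685 bp of the remaining adult intervals. That condition leaves out adult intervals more than 2 times as wide as their PD12 interval. Without the widest 10% the adult width of shared regions was 761 bp, against 657 bp for adult-only intervals.

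The share in adult POL2 domains was 6.37% in the 50% narrowest intervals, 16.2% in domains of 5 kb or more and 16.8% without the widest 10%, where adult-only intervals had 8.65%, 12.0% and 14.4%. In PD12 domains it was 3.82%, 13.5% and 11.4%, with 5.22%, 8.07% and 8.15% for adult-only intervals. Neighbours were found at 10.9% within 5 kb and 54.8% within 50 kb, against 12.4% and 57.6%. The cause was not tested.

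No paired analysis was possible because only 1 library stands in each group. Other settings for promoters, motif and gene lists were not run. Unknown depth and cell mix limit each comparison between stages.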
